A study of Homo sapiens with 18 samples.

Results

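The long noncoding RNA genes KCNQ1OT1, NEAT1, MALAT1, TUG1, OIP5-AS1 and NORAD were described in RNA sequencing libraries of HEK-293E cells, an established human line of embryonic kidney origin. These 6 genes were matched by symbol, each to 1 Ensembl identifier, among 60623 genes of the deposited gene table. KCNQ1OT1 was chosen by its measured fall within 1 h of feeding, so its values in that comparison are a description and support nothing. The other 5 genes were listed beside it as widely studied long noncoding RNAs, with results of these data known. All 6 passed the filter on low counts, which 16414 genes passed, and 1943 of those carried a long noncoding RNA type in GENCODE release 29.

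Cells had been kept overnight in medium with little serum (starved) and some were then returned to regular growth medium for 1 h or 4 h (fed). Torin1 is an inhibitor of the kinase mTOR, which couples nutrient and growth factor supply to translation and growth. The 6 groups of 3 libraries were starved cells with Torin1 and without it, 1 h fed cells with Torin1 and without it, and 4 h fed cells with Torin1 and without it. The sources used here do not state how much Torin1 was given or for how long. They also do not say whether replicates came from separate cultures, and p-values then measure only how far these libraries spread, which may be technical. All 18 libraries come from 1 cell line, and in bulk RNA fewer cells with a transcript and less of it per cell cannot be told apart.

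Library totals lay between 10510689 and 13690035 counts, and 1.87% to 3.81% of counts came from mitochondrially encoded genes. Levels are given as CPM, which divides counts by the library size after correction with TMM factors (trimmed mean of M values). A count of 0 allows up to 0.219 to 0.285 CPM, for counting error only and computed from library totals before the TMM correction. The 7 HEK-293 line markers summed to 1338 to 1636 CPM in libraries with Torin1 and to 845 to 1079 CPM without it, with none at 0 throughout. The 6 fibroblast markers summed to 15.3 to 37.0 CPM with Torin1 and 8.40 to 43.6 CPM without it. The 4 immune and 3 endothelial markers each summed to under 2 CPM in every library, the highest sums being 1.94 and 1.65 CPM. The part of these markers in the results was not tested.

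Long noncoding RNAs are transcripts not translated into a known protein that can act as RNA or through the act of their transcription. Some work at their own locus, where they silence or activate neighbouring genes, some build nuclear bodies, and some bind proteins or microRNAs in the cytoplasm. KCNQ1OT1 is a nuclear RNA transcribed from 1 parental allele against the direction of KCNQ1, and it silences neighbouring imprinted genes on that chromosome. NEAT1 is the scaffold of paraspeckles, nuclear bodies that hold RNA-binding proteins, and MALAT1 is a nuclear RNA of splicing speckles. TUG1 is a spliced RNA transcribed from a promoter it shares with the oppositely directed MORC2. OIP5-AS1, known in mouse and fish as Cyrano, carries a nearly fully paired site for the microRNA miR-7, which leads to the decay of that microRNA in mouse. NORAD is a cytoplasmic RNA that binds Pumilio proteins, among them PUM2.

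The promoter sequences below show a letter match shared by TUG1, OIP5-AS1 and NORAD, picked from several motifs that were searched. That of TUG1 is referred to beside its values. They come from RefSeq (GRCh38.p14), which matched 4 of the 6 genes, and span 250 bases before to 50 bases after each start. The E-box CACGTG, the motif of the MYC, MAX, USF and TFEB family, is in capitals.
TUG1, chr22:30969015-30969314, plus strand: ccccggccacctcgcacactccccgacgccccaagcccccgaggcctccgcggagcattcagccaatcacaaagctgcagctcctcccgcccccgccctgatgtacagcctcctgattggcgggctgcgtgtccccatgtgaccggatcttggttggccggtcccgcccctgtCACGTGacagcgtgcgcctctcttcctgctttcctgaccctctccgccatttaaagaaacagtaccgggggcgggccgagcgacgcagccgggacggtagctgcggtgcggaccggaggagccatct
OIP5-AS1, chr15:41283740-41284039, plus strand: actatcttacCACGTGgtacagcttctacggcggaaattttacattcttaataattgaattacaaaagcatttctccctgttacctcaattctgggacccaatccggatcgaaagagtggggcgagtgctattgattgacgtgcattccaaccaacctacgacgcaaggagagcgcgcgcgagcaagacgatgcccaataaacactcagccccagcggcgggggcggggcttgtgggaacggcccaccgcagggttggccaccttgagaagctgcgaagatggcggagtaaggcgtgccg
NORAD, chr20:36050911-36051210, minus strand: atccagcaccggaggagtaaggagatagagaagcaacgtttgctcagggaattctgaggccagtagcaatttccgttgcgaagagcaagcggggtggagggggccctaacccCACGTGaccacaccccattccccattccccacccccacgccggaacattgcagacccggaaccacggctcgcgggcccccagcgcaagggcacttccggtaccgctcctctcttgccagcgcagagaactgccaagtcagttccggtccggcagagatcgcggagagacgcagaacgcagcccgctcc
Each of these promoters held 1 E-box, which starts at position −77 in TUG1, −240 in OIP5-AS1 and −138 in NORAD, counted from the transcript start. Of 35116 RefSeq promoters of the same length, 7.26% held an E-box, and both MALAT1 promoters held none. The letters TCACGTGA, an extended E-box bound by TFEB and TFE3 that contains the shorter motif, were found in TUG1 alone of these and in 0.980% of all promoters. A 9-letter motif of EGR1, GCGNGGGCG, was found in TUG1, OIP5-AS1 and 1 of the MALAT1 promoters, and in 9.43% of all promoters. The CCAAT box of NF-Y was found in TUG1 and OIP5-AS1, and in 34.6% of all promoters. A TATA box was found in the other MALAT1 promoter, and in 11.5% of all promoters. The motifs searched for CREB, ATF4, FOXO and SRF had no match in these promoters. The search read both strands, and a match is a description of the letters, not of binding. KCNQ1OT1 and NEAT1 had no promoter entry and are named only.

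NORAD-201, the 5339-base transcript of NORAD, was searched for TGTANATA, the element bound by Pumilio proteins, on the transcript strand. It held 15 matches, of which the first, the third and a pair that lie close together are shown, with the element in capitals and 8 bases on each side.
NORAD-201, position 761: aaggcctgTGTATATAatatgaaa
NORAD-201, position 1241: tcacatttTGTAAATAcctttttg
NORAD-201, position 1442: cttatctgTGTATATAgtgtacat
NORAD-201, position 1451: gtatatagTGTACATAaaggacag
The 15 elements amount to 2.81 per kilobase. Among 1427 long noncoding transcripts of at least 3000 bases, the median was 0 per kilobase and 3 transcripts, or 0.210%, were at or above NORAD, which is itself among them. KCNQ1OT1-201 held 9 elements over its 91667 bases, which is 0.0982 per kilobase.

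The miR-7 site of OIP5-AS1 is shown with the microRNA, since the isoforms described further on differ in it. The seed, bases 2 to 8 of the microRNA, and the letters that pair with it are in capitals.
hsa-miR-7-5p: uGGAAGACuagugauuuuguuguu
OIP5-AS1-201, seed match at position 2887: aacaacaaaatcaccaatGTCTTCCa
Beyond the seed match, 14 further bases of this site pair in an unbroken run. The same transcript held 2 other seed matches, at positions 724 and 8167, with runs of 5 and 3 paired bases. The short isoform OIP5-AS1-205 held 1 seed match, at position 917, with a run of 5 paired bases.

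KCNQ1OT1 (ENSG00000269821) is annotated on the minus strand of chr11:2608328-2699994 in GENCODE release 29 (GRCh38), as 1 unspliced transcript of 91667 bases that lies within KCNQ1 on the opposite strand. Its levels were 4.22, 4.32 and 6.70 CPM in the 1 h fed libraries, against 9.72, 12.2 and 10.1 CPM in the starved libraries. The 4 h fed libraries had 2.89, 3.17 and 4.59 CPM. Every fed library lay under every starved library, and the 1 h and 4 h fed libraries overlapped.

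After 1 h of feeding the mean was 5.08 ± 1.40 CPM, against 10.7 ± 1.34 CPM in starved cells (SD, n = 3 each), and the log2 fold change was −1.07 with an SE of 0.24. This is the comparison by which the gene was chosen, so the value is a description. There 0.646% of all genes tested were called, at an adjusted p under 0.05 in edgeR's quasi-likelihood test, and KCNQ1OT1 was the 1 gene of the 6 that was. Without any of the starved libraries, or without the first or the second 1 h fed library, it was not called (edgeR adjusted p = 0.0553 to 0.203). After 4 h of feeding the level was 3.55 ± 0.913 CPM in fed cells, against the starved mean above (SD, n = 3), and KCNQ1OT1 had fallen by 1.59 on the log2 scale (SE 0.25, edgeR adjusted p = 5.22e-06). That comparison shares the starved libraries with the one used for the choice. Between 4 h and 1 h of feeding, which does not use the starved libraries but shares the 1 h fed ones, the log2 fold change was −0.52 (SE 0.26) and did not pass (edgeR adjusted p = 0.115). Without the third 4 h fed library it was −0.74 and passed (edgeR adjusted p = 0.0469).

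With Torin1, KCNQ1OT1 was low even in cells that had not been fed. Starved libraries with Torin1 had 3.48, 4.41 and 3.42 CPM, 1 h fed libraries with Torin1 had 2.65, 2.35 and 1.65 CPM, and 4 h fed libraries with Torin1 had 2.49, 3.12 and 3.27 CPM. With Torin1 every starved and 1 h fed library lay under every library of the same feeding state without it, whereas the 4 h fed libraries overlapped. KCNQ1OT1 fell with Torin1 in starved cells, with a log2 change of −1.50 (SE 0.25, edgeR adjusted p = 3.75e-06), and in 1 h fed cells, with −1.20 (SE 0.27, edgeR adjusted p = 0.000281). Both comparisons share libraries with the one used for the choice. In 4 h fed cells, which share none, the log2 difference was −0.26 (SE 0.27, edgeR adjusted p = 0.427), with a 95% interval of −0.78 to 0.27.

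In cells with Torin1, which were not used in choosing the gene, feeding for 1 h gave a log2 difference of −0.77 (SE 0.27) that did not pass (edgeR adjusted p = 0.287, unadjusted p = 0.00847). The 1 h fed libraries with Torin1 all lay under the starved libraries with Torin1. The effect of 4 h of feeding differed with Torin1, the log2 change being −0.35 (SE 0.26) with it and −1.59 without it, and the interaction was 1.24 (SE 0.36, edgeR adjusted p = 0.0107). It too rests on the starved libraries by which the gene was chosen. At 1 h the interaction was 0.30 (SE 0.37, edgeR adjusted p = 0.921). From high to low the group means ran starved, 1 h fed, starved with Torin1, 4 h fed, 4 h fed with Torin1 and 1 h fed with Torin1, and from the second place on each neighbouring pair had overlapping libraries. These levels rest on few reads, between 23 and 146 counts per library.

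**Figure D1:**
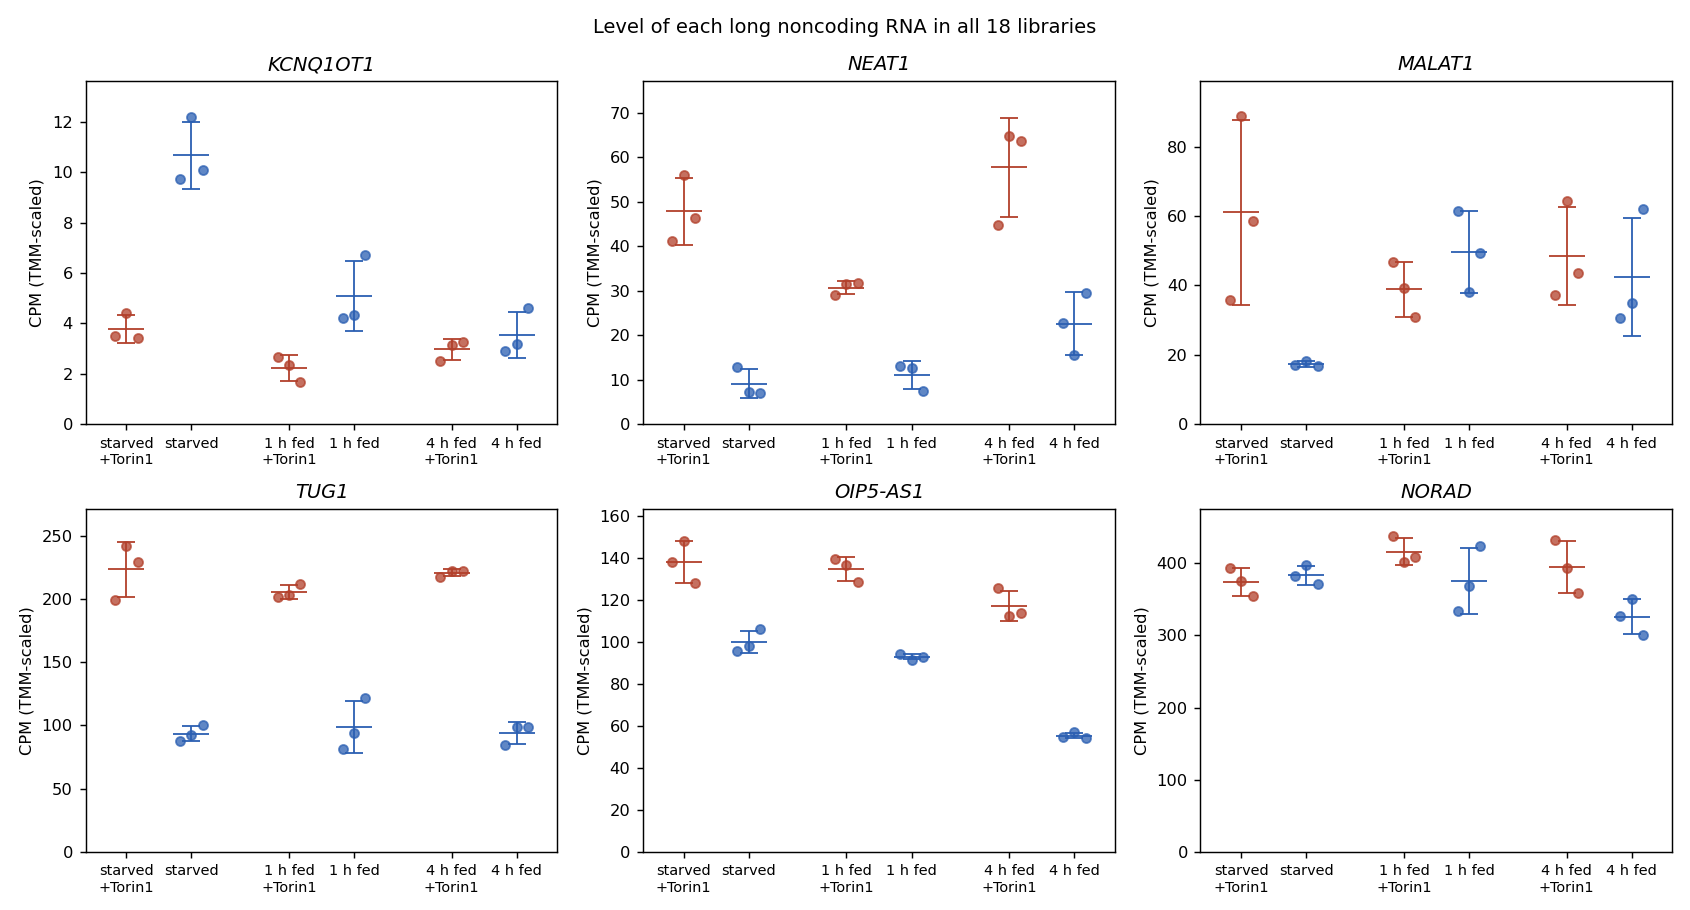
Level of each of the 6 long noncoding RNAs (y axes, TMM-scaled CPM from 0, a separate scale per gene) by feeding state from starved to 4 h, red with Torin1 and blue without it; points are the 3 libraries of a group, bars their mean and SD. KCNQ1OT1 is highest in the 3 starved libraries without Torin1 (9.72 to 12.2 CPM), TUG1 lies at 199 to 242 CPM with Torin1 and at 81.0 to 122 CPM without it, and OIP5-AS1 is lowest in 4 h fed cells without Torin1 (54.4 to 57.0 CPM).

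KCNQ1, the potassium channel gene that KCNQ1OT1 overlaps, had low levels, 2.78 ± 0.168 CPM in starved cells with Torin1 and 1.75 ± 0.495 CPM in starved cells without it (SD, n = 3 each). That difference was not called (log2 fold change 0.66, edgeR adjusted p = 0.108). KCNQ1 rose with Torin1 in 1 h fed cells, to 3.51 CPM against 1.43 CPM (log2 fold change 1.28, edgeR adjusted p = 0.00270). It also rose in 4 h fed cells, to 2.72 CPM against 1.42 CPM (0.93, edgeR adjusted p = 0.0313). KCNQ1OT1 fell with Torin1 in 1 h fed cells and was not called in 4 h fed cells. Strand use in counting is not given, so reads of the pair could be exchanged. Of 15 genes listed for the imprinted domain, 11 were tested. After 1 h of feeding 0 of them passed, where 0.646% of all genes tested were called. After 4 h of feeding 2 fell and 0 rose, where 42.3% of all genes tested were called. CDKN1C, a cyclin-dependent kinase inhibitor that KCNQ1OT1 silences on its own chromosome, was one of them, with 3.42 ± 0.299 CPM in 4 h fed cells and 15.6 ± 4.21 CPM in starved cells (SD, n = 3 each; log2 fold change −2.18, SE 0.26, edgeR adjusted p = 3.38e-08). The other was TSSC4, a splicing-associated gene (−0.54, edgeR adjusted p = 0.000261). With Torin1 in starved cells 2 of the 11 rose and 5 fell, a share called near the 63.5% of all genes tested. The medians there were −0.62 in the list and 0.09 in all genes tested. Among the 5, CDKN1C fell by 1.47 (SE 0.24, edgeR adjusted p = 3.30e-06) and CARS1, a cysteinyl-tRNA synthetase, by 1.26 (SE 0.08, edgeR adjusted p = 7.71e-14), while OSBPL5, a lipid transfer protein, rose by 2.99 (SE 0.24, edgeR adjusted p = 4.50e-12). For CDKN1C the effect of 4 h of feeding also differed with Torin1 (interaction 1.86, SE 0.36, edgeR adjusted p = 0.000214).

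The 5 genes of at least 5 CPM whose log2 CPM was most correlated with that of KCNQ1OT1 over the 18 libraries, among 11696 such genes, were SCPEP1 (Pearson r = 0.900), ZNF367 (0.898), ZBTB37 (0.891), ENSG00000255508 (0.881) and LMTK2 (0.881). These correlations are a description over libraries that fall into groups, and no p is given. ZBTB37, a zinc finger gene, averaged 20.5 ± 3.99 CPM in starved cells with Torin1, 44.1 ± 3.21 CPM in starved cells, 38.4 ± 2.98 CPM in 1 h fed cells and 18.5 ± 1.65 CPM in 4 h fed cells (SD, n = 3 each). SCPEP1, a serine carboxypeptidase, averaged 48.6 ± 1.05 CPM in starved cells with Torin1, 58.1 ± 4.07 CPM in starved cells and 47.2 ± 5.68 CPM in 4 h fed cells (SD, n = 3 each). After 1 h of feeding the means of these 5 genes were 81.0% to 93.8% of their starved means, and that of KCNQ1OT1 was 47.6%. KCNQ1OT1 was chosen by its fall in that comparison, so its lower share there follows from the choice and is a description.

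**Figure D2:**
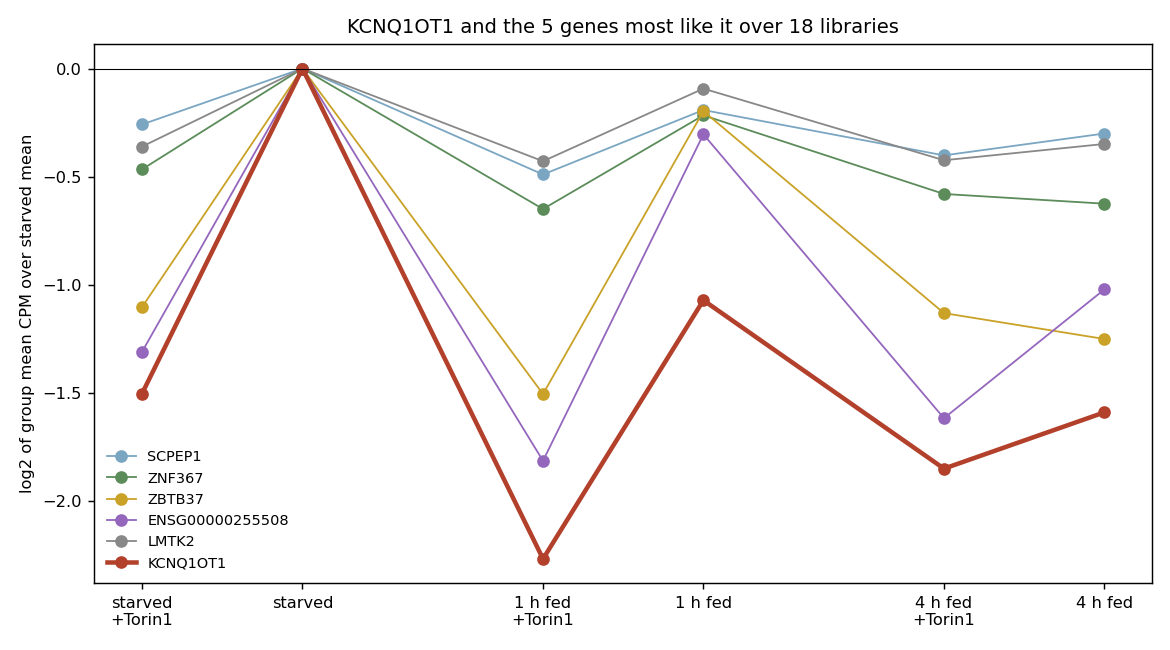
Group means of KCNQ1OT1 (thick red line) and of the 5 genes most correlated with it, as log2 of the group mean CPM over the starved mean without Torin1 (y axis), by group (x axis); lines join groups to guide the eye. All 6 genes are highest in starved cells without Torin1, and after 1 h of feeding KCNQ1OT1 (5.08 CPM against 10.7 CPM) stands below the others. That fall is the one it was chosen by.

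NEAT1 (ENSG00000245532) is annotated on the plus strand of chr11:65422774-65445540 with 8 isoforms, among them NEAT1-202, the 22743-base form needed to assemble paraspeckles. With Torin1 the gene had 41.2, 56.0 and 46.3 CPM in starved libraries, against 12.9, 7.27 and 7.07 CPM in starved libraries without it. The groups did not overlap, and NEAT1 rose with Torin1 by 2.40 on the log2 scale (SE 0.28, edgeR adjusted p = 1.86e-06), the largest rise of the 6 genes in this comparison. In 1 h fed cells there were 28.9, 31.4 and 31.6 CPM with Torin1, against 12.9, 12.7 and 7.50 CPM without it (log2 fold change 1.47, SE 0.27, edgeR adjusted p = 0.000231). In 4 h fed cells there were 44.8, 64.7 and 63.7 CPM with Torin1, against 22.8, 15.55 and 29.5 CPM without it (log2 fold change 1.35, SE 0.25, edgeR adjusted p = 0.000301). NEAT1 was thus higher with Torin1 in every feeding state, and no library with Torin1 was as low as one of the same state without it, the lowest with and the highest without at 4 h being 44.8 and 29.5 CPM.

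Without Torin1, feeding changed NEAT1 late. After 1 h the log2 fold change was 0.29 (SE 0.30, edgeR adjusted p = 0.841) and the groups overlapped. After 4 h NEAT1 had risen to 22.6 ± 6.98 CPM in fed cells, against 9.09 ± 3.32 CPM in starved cells (SD, n = 3 each; log2 fold change 1.32, SE 0.29, edgeR adjusted p = 0.00162), and from 1 h to 4 h of feeding it rose by 1.03 (SE 0.28, edgeR adjusted p = 0.00812). With Torin1 the means were 47.8 CPM in starved, 30.7 CPM in 1 h fed and 57.7 CPM in 4 h fed cells. Against starved cells with Torin1 the log2 change was −0.64 after 1 h (SE 0.24, edgeR adjusted p = 0.356), without overlap. After 4 h it was 0.27 (SE 0.24, edgeR adjusted p = 0.707), with overlap. With Torin1 the change from 1 h to 4 h was 0.91 (SE 0.24) and did not pass (edgeR adjusted p = 0.0797), although the libraries did not overlap. Without the first 4 h fed library with Torin1 it passed (edgeR adjusted p = 0.0487). The interaction at 4 h was −1.05 (SE 0.37) and missed the threshold (edgeR adjusted p = 0.0504). It passed without the first starved, the second 4 h fed or the first starved library with Torin1 (edgeR adjusted p = 0.00891, 0.0117 and 0.0475).

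In the isoform table NEAT1-207, a spliced form of 3300 bases, held 57.5% of the NEAT1 counts. It had 28.0, 37.1 and 32.9 CPM in starved libraries with Torin1, against 4.66, 4.59 and 5.23 CPM in starved libraries without it. The long NEAT1-202 had 7.23, 8.32 and 8.15 CPM in starved libraries with Torin1, against 3.40, 2.42 and 1.10 CPM in starved libraries without it. Both forms were higher with Torin1 in starved cells, with no overlap. The use of isoforms changed there (edgeR's gene-level test of relative isoform use, adjusted p = 0.00362), a call lost without the first starved library (adjusted p = 0.177). Relative to the gene, NEAT1-207 changed by 0.37 and NEAT1-202 by −0.62 in log2 (edgeR test of each isoform, unadjusted p = 0.602 and 0.611). The smallest p-values were those of NEAT1-203 and NEAT1-201 (same test, 0.00163 and 0.00239). NEAT1-203 had 4.56 CPM in the first starved library and 0 in every other starved library, with Torin1 or without it. NEAT1-201 stood at 0 in starved libraries without Torin1 and at 4.94, 10.6 and 1.31 CPM with it. In 4 h fed cells NEAT1-202 overlapped, with 4.27, 9.51 and 9.67 CPM with Torin1 and 3.15, 3.26 and 9.64 CPM without it. The forms overlap in sequence, so the split of reads between them is an estimate.

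Of 15 paraspeckle protein genes, all tested, 5 rose and 1 fell after 4 h of feeding, and with Torin1 in starved cells 4 rose and 5 fell. Both shares called were near those of all genes tested, 42.3% after 4 h of feeding and 63.5% with Torin1. RBM14, needed for paraspeckle formation, rose in 4 h fed cells to 289.6 ± 12.8 CPM, against 145 ± 6.58 CPM in starved cells (SD, n = 3 each; log2 fold change 1.00, SE 0.11, edgeR adjusted p = 8.99e-09). In starved cells RBM14 fell with Torin1 by 0.84 (SE 0.11, edgeR adjusted p = 9.62e-08), whereas NONO, a core paraspeckle protein, rose by 0.36 (SE 0.06, edgeR adjusted p = 1.32e-05). SFPQ, its partner, rose after 4 h of feeding by 0.60 (SE 0.09, edgeR adjusted p = 5.39e-06). The list medians were 0.16 after 4 h of feeding and −0.02 with Torin1 in starved cells, against 0.00 and 0.09 in all genes tested. At 1 h of feeding 0 of the 15 passed, where 0.646% of all genes tested were called.

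MALAT1 (ENSG00000251562) is annotated 52148 bases from NEAT1 on the same strand, at chr11:65497688-65506516. After 1 h of feeding its levels were 61.5, 38.0 and 49.5 CPM, against 16.9, 18.2 and 16.7 CPM in the starved libraries. The lowest fed library stood above the highest starved one, yet the log2 fold change of 1.52 (SE 0.38) did not pass over all genes (edgeR adjusted p = 0.132, unadjusted p = 0.00163). DESeq2 called it (adjusted p = 0.00383), as did edgeR fitted to these 6 libraries alone (adjusted p = 0.000523). In 13 of 15 alternatives it stayed uncalled. After 4 h of feeding MALAT1 had 30.7, 34.8 and 61.9 CPM, again above every starved library, and had risen by 1.30 (SE 0.38, edgeR adjusted p = 0.0151). Without the third 4 h fed library the rise was 0.92 and did not pass (edgeR adjusted p = 0.0824).

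With Torin1 MALAT1 had 35.8, 88.9 and 58.5 CPM in starved libraries, above every starved library without it, and rose by 1.82 on the log2 scale (SE 0.38, edgeR adjusted p = 0.000880). In fed cells the groups overlapped, at 46.6, 39.2 and 30.8 CPM with Torin1 after 1 h and at 37.4, 64.3 and 43.4 CPM with Torin1 after 4 h. The log2 differences there were −0.36 (SE 0.35, 95% interval −1.05 to 0.33) and 0.19 (SE 0.35, 95% interval −0.50 to 0.87), and neither passed (edgeR adjusted p = 0.400 and 0.679). The effect of 4 h of feeding differed with Torin1, with an interaction of −1.63 (SE 0.51, edgeR adjusted p = 0.0337). This call was lost when any of 8 of the 12 libraries was left out, namely each starved library, the third 4 h fed library, the second or the third starved library with Torin1, or the first or the third 4 h fed library with Torin1 (edgeR adjusted p up to 0.0955). It was also lost with no filter on low counts, with only the groups compared and with limma-voom (adjusted p = 0.0573, 0.0679 and 0.0728). MALAT1 was thus low in the starved libraries without Torin1. In that group mitochondrially encoded genes held 1.87% to 2.59% of counts, against 2.39% to 3.81% in the other libraries, and the part of this difference in the MALAT1 values was not tested.

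RN7SK, the 7SK RNA of transcription elongation control, which like MALAT1 does not end in a standard poly(A) tail, is given for comparison. It averaged 27.4 ± 14.5 CPM in 1 h fed cells, 21.99 ± 15.4 CPM in 4 h fed cells, 11.3 ± 1.08 CPM in starved cells with Torin1 and 4.93 ± 1.46 CPM in starved cells without it (SD, n = 3 each). Its log2 fold change was 2.47 (SE 0.59, edgeR adjusted p = 0.116) after 1 h and 2.15 (SE 0.60, edgeR adjusted p = 0.0110) after 4 h of feeding. The sources used here do not state how RNA was selected for the libraries, and its part in the MALAT1 values was not tested. RN7SK was picked by its values, and further RNAs without a standard poly(A) tail were not set beside MALAT1. It therefore does not show how such RNAs moved as a group.

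The 2 MALAT1 isoforms with most counts both stood higher in fed cells. After 1 h of feeding MALAT1-202, the unspliced form of 8708 bases, had 38.7, 21.0 and 24.9 CPM in fed libraries, against 7.47, 6.43 and 9.45 CPM in starved libraries. MALAT1-215, of 5340 bases, had 20.7, 15.7 and 22.4 CPM in fed libraries, against 7.28, 9.85 and 6.88 CPM in starved libraries. Neither form overlapped between these groups. The use of MALAT1 isoforms changed with Torin1 in 1 h fed cells (edgeR isoform-use test, adjusted p = 0.0262). That call was lost with a minimum count of 50 (adjusted p = 0.881) and, with edgeR adjusted p of 0.0839 to 0.218, without any of the 1 h fed libraries or without the first or the third 1 h fed library with Torin1. Relative to the gene, MALAT1-202 changed there by −0.14 and MALAT1-215 by 0.02 in log2 (edgeR test of each isoform, unadjusted p = 0.766 and 0.971). The smallest p-values were those of MALAT1-201 and MALAT1-212. Both stood at 0 in all 1 h fed libraries without Torin1 and averaged 1.46 and 0.762 CPM with it.

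TUG1 (ENSG00000253352) is annotated on the plus strand of chr22:30969245-30979395, and its start lies 947 bases from MORC2. With Torin1 it had 199, 242 and 229 CPM in starved libraries, against 87.7, 92.7 and 100.02 CPM in starved libraries without it. In 1 h fed libraries there were 202, 203 and 212 CPM with Torin1, against 81.0, 93.8 and 122 CPM without it. In 4 h fed libraries there were 218, 222 and 222 CPM with Torin1, against 84.1, 98.8 and 99.1 CPM without it. All 9 libraries with Torin1 stood above all 9 without it. TUG1 rose with Torin1 by 1.26 (SE 0.10) on the log2 scale in starved cells, 1.06 (SE 0.10) after 1 h and 1.23 (SE 0.10) after 4 h of feeding, with edgeR adjusted p-values of 1.64e-11, 5.24e-10 and 5.33e-11.

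Feeding gave no call for TUG1. At 4 h without Torin1 the log2 fold change was 0.01 with a 95% interval of −0.20 to 0.21 (edgeR adjusted p = 0.964), and it changed sign with the scaling of libraries. With Torin1 the change after 4 h of feeding was −0.02, with a 95% interval of −0.21 to 0.18 (edgeR adjusted p = 0.975). MORC2, a chromatin ATPase gene on the other side of the shared promoter, also rose with Torin1 in starved cells (log2 fold change 1.24, edgeR adjusted p = 2.18e-12). Unlike TUG1 it rose after 4 h of feeding without Torin1 too, to 52.1 ± 4.55 CPM in fed cells, against 26.4 ± 0.832 CPM in starved cells (SD, n = 3 each; log2 fold change 0.98, edgeR adjusted p = 1.37e-09). AC004542.2, a gene annotated over TUG1 on the opposite strand, rose with Torin1 in starved cells by 1.52 (edgeR adjusted p = 7.75e-05), and its reads cannot be told from those of TUG1 without strand. The TUG1 promoter printed above holds the extended E-box at position −78, and its part in these values was not tested.

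OIP5-AS1 (ENSG00000247556) is annotated on the plus strand of chr15:41283990-41309737 and overlaps OIP5 on the opposite strand. It moved with feeding and with Torin1 in opposite directions. After 4 h of feeding it had 54.9, 57.0 and 54.4 CPM in fed libraries, against 95.9, 98.3 and 106 CPM in starved libraries. The 4 h fed libraries lay within 3 CPM of each other and far under all others, and OIP5-AS1 fell by 0.85 on the log2 scale (SE 0.08, edgeR adjusted p = 6.35e-10). After 1 h the levels were 94.1, 91.7 and 93.0 CPM and the log2 fold change was −0.11 (SE 0.08, edgeR adjusted p = 0.726), while from 1 h to 4 h of feeding it fell by 0.75 (SE 0.08, edgeR adjusted p = 1.11e-08).

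With Torin1 OIP5-AS1 had 138, 148 and 128 CPM in starved libraries, 139, 137 and 129 CPM in 1 h fed libraries and 126, 112 and 114 CPM in 4 h fed libraries. Each of these stood above every library without Torin1. The rise with Torin1 was 0.46 (SE 0.08, edgeR adjusted p = 6.50e-06) in starved cells, 0.54 (SE 0.08, edgeR adjusted p = 6.63e-07) in 1 h fed cells and 1.08 (SE 0.08, edgeR adjusted p = 2.65e-12) in 4 h fed cells. With Torin1 the log2 change after 4 h of feeding was −0.24 (SE 0.08) and did not pass in edgeR (adjusted p = 0.130). It differed from the change without Torin1, with an interaction of 0.62 (SE 0.11, edgeR adjusted p = 9.90e-05).

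Its isoforms did not move alike. OIP5-AS1-201, of 8829 bases, held 87.9% of the isoform counts and carries the miR-7 site printed above. It had 129, 136 and 114 CPM in starved libraries with Torin1, against 78.8, 81.0 and 88.1 CPM in starved libraries without it. OIP5-AS1-205, of 1269 bases, lacks that site and holds the single seed match given above. It had 0.209, 0.480 and 1.05 CPM in starved libraries with Torin1, against 3.88, 6.18 and 6.06 CPM in starved libraries without it. The long form was higher and the short form lower with Torin1, with no overlap in either.

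The same was seen in fed cells, where OIP5-AS1-205 had 1.54, 0.756 and 1.08 CPM with Torin1 and 7.43, 6.35 and 8.57 CPM without it after 1 h. After 4 h it had 1.21 CPM in 1 library with Torin1 and was listed at 0 in the other 2, against 6.30, 3.45 and 5.24 CPM without it. Isoform use of OIP5-AS1 changed with Torin1 in all 3 feeding states, from starved to 4 h (edgeR isoform-use test, adjusted p = 0.000870, 0.00170 and 2.45e-06). In starved cells the call was lost without the first or the second library with Torin1 (edgeR adjusted p = 0.103 and 0.0620). Relative to the gene, OIP5-AS1-205 changed by −3.68, −3.26 and −4.68 in log2, from starved to 4 h. It passed only in 4 h fed cells (edgeR test of each isoform, adjusted p = 0.0630, 0.113 and 0.0147). OIP5-AS1-201 changed by 0.14, 0.20 and 0.29 relative to the gene (same test, unadjusted p = 0.609, 0.477 and 0.302). Isoform use of OIP5-AS1 was not called after 4 h of feeding without Torin1 (edgeR adjusted p = 0.580). In that comparison 0 of the 4 testable members were called, against 3.38% of 10701 genes with several isoforms, 1 of the 4 (NEAT1) having an unadjusted p under 0.05. With Torin1 2 were called in starved cells, 2 in 1 h fed cells and 1 in 4 h fed cells, where 15.2%, 16.1% and 11.2% of genes were called. KCNQ1OT1 and NORAD have 1 isoform each and could not be tested. Isoform counts varied more between libraries than gene counts, so a missed isoform change is not evidence of none.

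**Figure D3:**
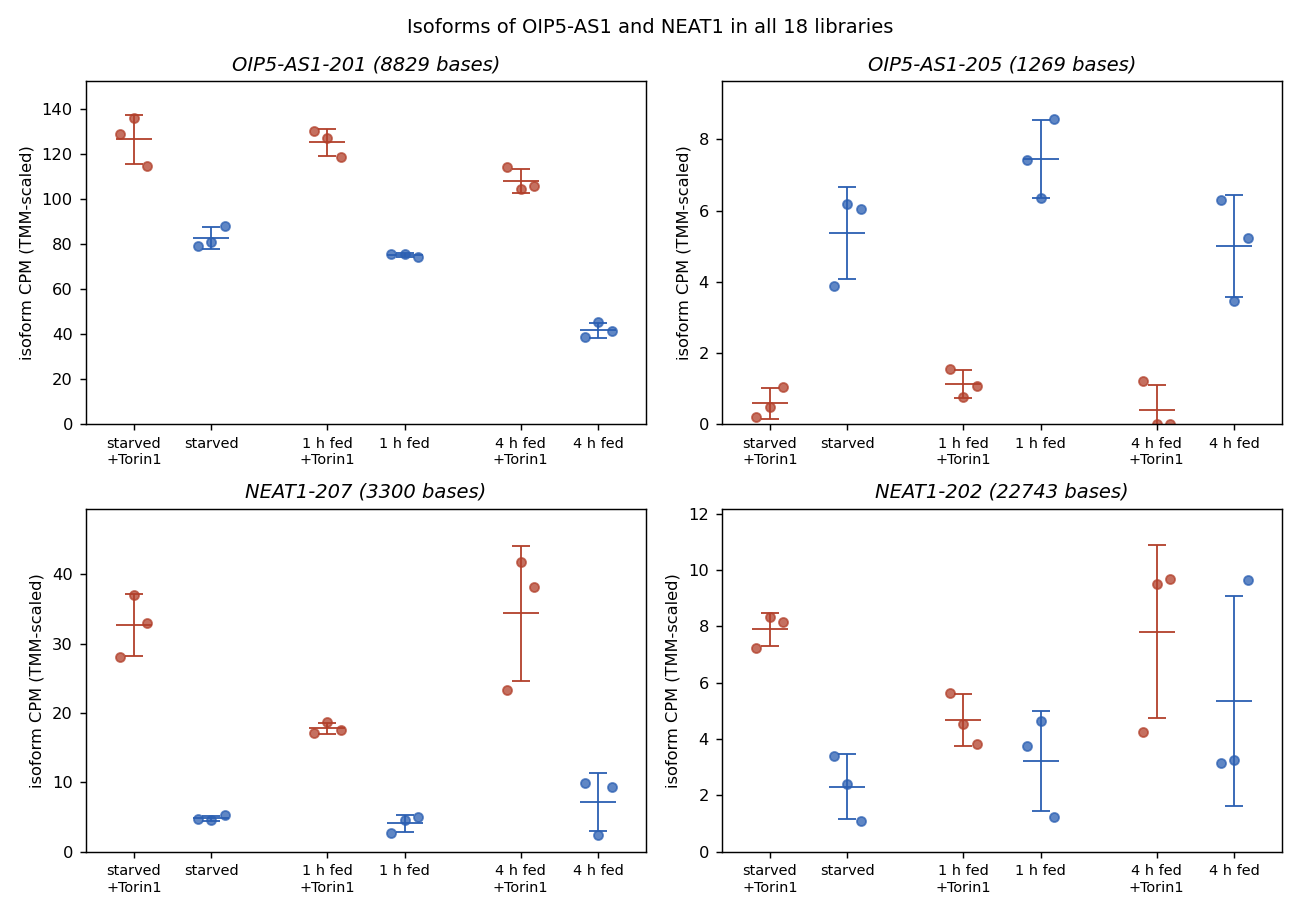
Levels (y axes, TMM-scaled CPM from 0, a separate scale per isoform) of the main and a short OIP5-AS1 isoform and of the main and the long NEAT1 isoform by feeding state from starved to 4 h, red with Torin1 and blue without it; points are the 3 libraries of a group, bars their mean and SD. OIP5-AS1-205 stands at 0 to 1.54 CPM with Torin1 and at 3.45 to 8.57 CPM without it, while OIP5-AS1-201 is higher with Torin1 in every feeding state.

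OIP5, a centromere protein gene that overlaps OIP5-AS1 on the other strand, fell with Torin1 in starved cells (log2 fold change −0.66, edgeR adjusted p = 1.80e-05), where OIP5-AS1 rose. After 4 h of feeding OIP5 had a log2 fold change of −0.23 (edgeR adjusted p = 0.123). AC087721.2, which overlaps on the same strand, had 4.90 ± 1.89 CPM in starved cells with Torin1 and 9.33 ± 3.04 CPM in starved cells without it (SD, n = 3 each; log2 fold change −0.92, edgeR adjusted p = 0.0493). Reads from shared bases could be assigned to any of these genes. ELAVL1, the RNA-binding protein HuR that OIP5-AS1 binds in human cells, fell with Torin1 in starved cells, to 139 ± 9.18 CPM against 218 ± 2.41 CPM without it (SD, n = 3 each; log2 fold change −0.64, edgeR adjusted p = 1.57e-08).

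NORAD (ENSG00000260032), on the minus strand of chr20:36045622-36050960 with no annotated gene over it, had the highest level of the 6 per kilobase of transcript in every group. In 4 h fed libraries it had 327, 350 and 301 CPM, against 382, 397 and 371 CPM in starved libraries. The groups did not overlap and NORAD fell by 0.23 on the log2 scale (SE 0.08, edgeR adjusted p = 0.0241), so that the starved level was 1.18-fold that of 4 h fed cells. Without the second starved library, or without the first or the third 4 h fed library, it did not pass (edgeR adjusted p = 0.0835, 0.0544 and 0.127).

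With Torin1 NORAD had 432, 394 and 359 CPM in 4 h fed libraries, above each 4 h fed library without it, and rose by 0.28 (SE 0.08, edgeR adjusted p = 0.00574). Without the first 4 h fed library with Torin1 this did not pass (edgeR adjusted p = 0.0605). In starved cells the groups overlapped, at 393, 375 and 355 CPM with Torin1, and the log2 difference was −0.04 with a 95% interval of −0.20 to 0.13 (edgeR adjusted p = 0.729). This sign turned when libraries were scaled by total counts, under which the Torin1 comparisons shifted upward by 0.14, 0.11 and 0.16 in the median over all genes tested. The 1 h fed libraries had 438, 402 and 409 CPM with Torin1 and 334, 369 and 424 CPM without it, which overlap, and the log2 difference of 0.15 (SE 0.08, edgeR adjusted p = 0.120) passed with total counts (0.26) or without the third 1 h fed library (0.24). Between 4 h and 1 h of feeding NORAD had a difference of −0.20 (SE 0.08, edgeR adjusted p = 0.0523), which passed without the first 1 h fed or the second 4 h fed library (edgeR adjusted p = 0.00711 and 0.0169). The interaction at 4 h was 0.31 (SE 0.12, edgeR adjusted p = 0.05005) and missed the threshold, but passed without the second 4 h fed library, the first starved library with Torin1 or the third 4 h fed library with Torin1.

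PUM2, a Pumilio protein that binds the elements printed above, passed in none of the comparisons of 1 h feeding, 4 h feeding and Torin1 in starved cells. It averaged 130.4 ± 3.41 CPM in starved cells with Torin1 and 132 ± 7.57 CPM in starved cells without it (SD, n = 3 each). Of the 14 genes for proteins that bind these RNAs, 3 rose and 3 fell after 4 h of feeding, and 1 rose and 8 fell with Torin1 in starved cells, where the list median was −0.20 against 0.09 in all genes tested. The shares called were near the 42.3% and 63.5% of all genes called in these comparisons. The 1 that rose was EHMT2, a histone methyltransferase that KCNQ1OT1 recruits, at 124 ± 6.87 CPM with Torin1 and 56.3 ± 5.47 CPM without it (SD, n = 3 each; log2 fold change 1.14, edgeR adjusted p = 1.39e-12).

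**Figure D4:**
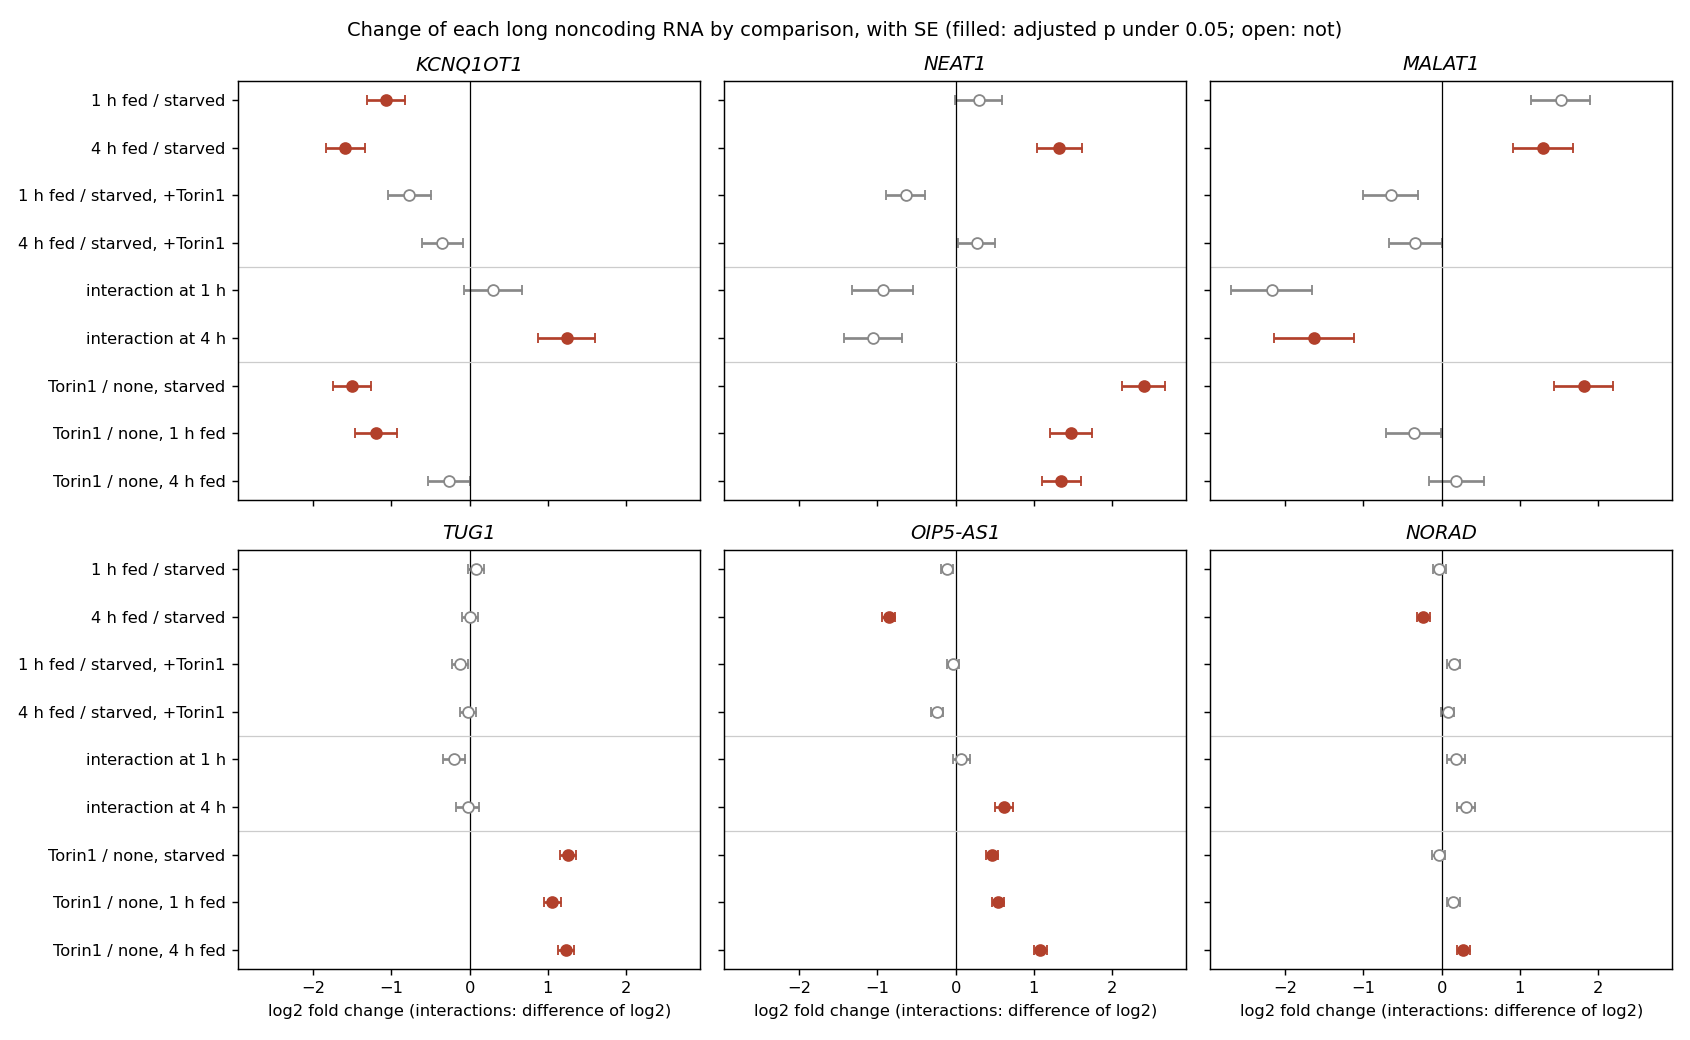
Log2 fold change (x axis, with SE bars) of each of the 6 genes in 9 comparisons (y axis), fed over starved, the same with Torin1, the interaction of both, and Torin1 over none; filled red points passed an edgeR adjusted p under 0.05 over all genes, open grey points did not. With Torin1 in starved cells NEAT1 lies at 2.40 and KCNQ1OT1 at −1.50, and no point of feeding under Torin1 is filled. The 1 h value of KCNQ1OT1 is the one it was chosen by.

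Side by side, 5 of the 6 genes were called after 4 h of feeding, NEAT1 and MALAT1 higher and KCNQ1OT1, OIP5-AS1 and NORAD lower, where 42.3% of the 16414 genes tested were called. Of the 1943 long noncoding RNA genes 11.99% rose and 13.3% fell there, and of the 13616 protein-coding genes 25.4% rose and 20.5% fell. These kinds of genes were not matched for level, and the part of level in the shares called was not tested. Between 4 h and 1 h of feeding 2 of the 6 were called, NEAT1 and OIP5-AS1, against 39.8% of all genes. With Torin1 in starved cells 5 of the 6 were called, 4 of them higher, against 63.5% of all genes. In 1 h fed cells 4 were called, against 63.1% of all genes, and in 4 h fed cells 4 were called, against 56.0% of all genes. With Torin1 the medians of the long noncoding RNA genes were above those of the protein-coding genes in each state, at 0.41 and 0.05 in starved cells, 0.28 and 0.04 in 1 h fed cells and 0.43 and −0.02 in 4 h fed cells. These shares are descriptions, and comparisons with the same starved libraries are not independent of each other. KCNQ1OT1 is counted among the genes called after 4 h of feeding and with Torin1 in starved and in 1 h fed cells. Those comparisons share libraries with the one it was chosen by, so its calls in these counts support nothing.

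Feeding under Torin1 gave no call among the 6 in edgeR. After 1 h 0 were called, against 0.402% of all genes, with 2 at an unadjusted p under 0.05 and 0 called by limma-voom or DESeq2. After 4 h 0 were called, against 1.80% of all genes, with 1 at an unadjusted p under 0.05, 0 called by limma-voom and 1, OIP5-AS1, by DESeq2. Between 4 h and 1 h 0 were called, against 1.47% of all genes, with 2 at an unadjusted p under 0.05 and 1, NEAT1, called by both limma-voom and DESeq2. The interaction at 1 h called 0, against 0.0670% of all genes, with 2 at an unadjusted p under 0.05, 0 called by limma-voom and 1, MALAT1, by DESeq2. The interaction at 4 h called KCNQ1OT1, MALAT1 and OIP5-AS1, against 25.8% of all genes. For KCNQ1OT1 it uses the starved libraries by which that gene was chosen.

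Per kilobase of the isoform with most counts, starved cells without Torin1 had 71.9 CPM of NORAD, 12.5 of TUG1, 11.3 of OIP5-AS1, 2.75 of NEAT1, 1.98 of MALAT1 and 0.116 of KCNQ1OT1. With Torin1 in starved cells the same measure was 70.1 CPM of NORAD, 29.9 of TUG1, 15.6 of OIP5-AS1, 14.5 of NEAT1, 7.01 of MALAT1 and 0.0411 of KCNQ1OT1. This measure divides the CPM of the whole gene by the length of that isoform. It held 57.5% of the NEAT1, 52.9% of the MALAT1, 35.2% of the TUG1 and 87.9% of the OIP5-AS1 counts. Other isoforms of these genes differ in length, so their order can depend on this choice. By this measure the order of the 6 genes was the same in both groups, but not in all 6 groups. In 1 h fed cells MALAT1 (5.71 CPM per kilobase) stood above NEAT1 (3.35). By the same measure NEAT1 stood above OIP5-AS1 in 4 h fed cells with Torin1 (17.5 and 13.3) and without it (6.85 and 6.28). Over the 18 libraries the log2 CPM of KCNQ1OT1 had a Pearson r of −0.703 with NEAT1 and −0.584 with TUG1, and that of NEAT1 one of 0.813 with TUG1, as a description of libraries that share groups.

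Of 40 further long noncoding RNA genes listed for comparison, 33 were tested. After 1 h of feeding 1 rose and 0 fell, where 0.646% of all genes and 0.412% of long noncoding RNA genes were called. The riser was MIR22HG, the host of a microRNA, with 7.64 ± 3.08 CPM in 1 h fed cells and 1.52 ± 0.587 CPM in starved cells (SD, n = 3 each; log2 fold change 2.31, SE 0.37, edgeR adjusted p = 0.00120). After 4 h of feeding 7 rose and 13 fell, where 42.3% of all genes and 25.3% of long noncoding RNA genes were called, and the list median was −0.30 against 0.00 in all genes tested. FGD5-AS1 fell too, to 75.5 ± 3.87 CPM in 4 h fed cells against 132 ± 3.55 CPM in starved cells (SD, n = 3 each; log2 fold change −0.80, SE 0.09, edgeR adjusted p = 1.64e-08). NRAV rose there by 1.35 (SE 0.20, edgeR adjusted p = 2.15e-06).

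With Torin1 in starved cells 10 of the 33 rose and 6 fell, where 63.5% of all genes and 45.0% of long noncoding RNA genes were called. JPX and FTX, long noncoding RNAs of the X-inactivation centre, were among them. JPX averaged 106 ± 6.97 CPM with Torin1 and 27.4 ± 1.35 CPM without it (SD, n = 3 each; log2 fold change 1.96, SE 0.09, edgeR adjusted p = 3.80e-17). FTX averaged 103 ± 9.02 CPM with Torin1 and 31.5 ± 1.85 CPM without it (SD, n = 3 each; log2 fold change 1.71, SE 0.11, edgeR adjusted p = 4.18e-14). THAP9-AS1 fell by 1.36 (SE 0.11, edgeR adjusted p = 2.98e-12) and DANCR by 0.72 (SE 0.08, edgeR adjusted p = 3.90e-09). In the interaction at 4 h 6 of the 33 were higher and 6 lower, where 25.8% of all genes and 12.9% of long noncoding RNA genes were called. FGD5-AS1 (0.80, edgeR adjusted p = 1.45e-05) was on the same side as OIP5-AS1.

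Of 11 genes for nuclear RNA decay, the nuclear exosome and its adaptors, 3 rose and 4 fell after 4 h of feeding, and with Torin1 in starved cells 1 rose and 7 fell. Of all genes 42.3% were called after 4 h of feeding and 63.5% with Torin1 in starved cells. DIS3, a catalytic subunit of the exosome, had 173 ± 4.98 CPM in starved cells with Torin1 and 413 ± 18.9 CPM in starved cells without it (SD, n = 3 each; log2 fold change −1.26, SE 0.09, edgeR adjusted p = 2.46e-13). The list median with Torin1 in starved cells was −0.52, against 0.09 in all genes tested. Within 100 kb of the 6 genes, 1, 8, 9, 5, 6 and 4 other genes were tested around KCNQ1OT1, NEAT1, MALAT1, TUG1, OIP5-AS1 and NORAD. After 1 h of feeding 0 of these neighbours passed in edgeR, where 0.646% of all genes were called. With Torin1 in starved cells 4 of the 5 around TUG1 rose and 0 fell, 3 of the 6 around OIP5-AS1 fell and 0 rose, and 3 of the 8 around NEAT1 rose and 3 fell. Of the 9 around MALAT1, which share members with those of NEAT1 and count NEAT1 itself, 4 rose and 5 fell, of the 4 around NORAD 1 rose and 2 fell, and the 1 beside KCNQ1OT1 was not called. These counts stand against the 63.5% of all genes called in that comparison, and nothing particular to the neighbours is read from them.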

How the data were processed

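RNA sequencing gave expected counts, estimated per gene by the authors with RSEM after alignment with STAR per the submitters' processing notes, which also name DESeq2 and give no versions. A deposited table of isoforms gives such estimated counts, all whole numbers, for each transcript. The gene table has 60623 genes, of which 29880 had a count in at least 1 library. In it 3.32% of values were not whole and were rounded. Of the identifiers, 60295 had a symbol in the gene name table. Types and positions came from GENCODE release 29 (GRCh38), which matched 58516 genes, and 205950 of 227368 isoforms with 98.9% of isoform counts. The labels name a C. elegans build although the identifiers are human Ensembl ones, and the build, annotation release and strand setting used for counting are not stated in them. Overlapping genes are therefore uncertain.

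The 18 libraries were modelled by 6 group means in edgeR 4.0.16 under R 4.3.3 (TMM factors, filterByExpr with a minimum count of 10, robust quasi-likelihood F tests, 12 residual degrees of freedom). The common biological coefficient of variation was 10.6%. Genes with a Benjamini-Hochberg adjusted p under 0.05 over the 16414 genes tested were called. An interaction is the log2 change with feeding under Torin1 minus that without Torin1. Intervals of 95% take the normal quantile times the SE. Correlations used log2 CPM with a prior count of 2. Isoform use was tested with diffSpliceDGE on 50532 isoforms of 10701 genes with at least 2 isoforms kept.

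Replicate numbers did not pair the libraries: 27 correlations of same-numbered deviations over 5000 genes lay between −0.0922 and 0.108, and in 0 of 9 comparisons were all above 0.1. Groups follow the labels. Alternatives tried were the Wald test of DESeq2 1.42.0, its size factors within edgeR, limma 3.58.1 with voom, total counts as scaling, no filter, a minimum count of 50, no mitochondrially encoded genes, only the groups compared, the replicate number as a block, and leaving out each library. The gene and isoform tests were checked on simulated counts, where the isoform test recovered few changed genes at the spread of this table.

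The 6 genes and the lists of further genes were chosen with earlier results of these data known. The text names the 6 genes in each comparison, up to 4 genes of a list with the smallest p, genes that overlap one of the 6 or lie within 100 kb, and the 5 genes most correlated with KCNQ1OT1. PUM2, CDKN1C with Torin1 and RN7SK beyond 1 h of feeding are named besides and were chosen after their values were seen. No deposited file was left unused, and 0 columns belonged to no labelled sample.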

Additional observations from a re-analysis of the deposited data

Results flagged for a closer look

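In 3 of the 6 genes the effect of 4 h of feeding differed with Torin1, by a test of the difference itself (edgeR's interaction of feeding with Torin1). For KCNQ1OT1 the interaction was 1.24 on the log2 scale (SE 0.36, edgeR adjusted p = 0.0107), the feeding change being −0.35 with Torin1 and −1.59 without it. That value uses the starved libraries by which KCNQ1OT1 was chosen, so it is a description. For MALAT1 it was −1.63 (SE 0.51, edgeR adjusted p = 0.0337), with feeding changes of −0.33 with Torin1 and 1.30 without it, and the call held in 10 of 21 alternatives. For OIP5-AS1 it was 0.62 (SE 0.11, edgeR adjusted p = 9.90e-05), with −0.24 with Torin1 and −0.85 without it. Of all genes tested 25.8% were called in this interaction.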

How the results depend on the processing

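Of the fold changes recomputed for the 6 genes under the alternatives, 969 kept their direction and side of the threshold, 22 lost and 40 gained a call, and 31 changed sign. Of the counts of called genes, 186 stayed within 1.5 times and 27 did not. The cause of these changes was not tested. With DESeq2's Wald test the 6 genes gave 2 calls after 1 h of feeding (1 in edgeR), 1 after 4 h of feeding under Torin1 (0 in edgeR), 1 between 4 h and 1 h under Torin1 (0), 1 in the interaction at 1 h (0) and 5 in the interaction at 4 h (3). Between 4 h and 1 h under Torin1 there was also 1 call, NEAT1, with limma-voom, with no filter and with only the groups compared. Fitting only the groups compared gave 1 call after 1 h of feeding under Torin1, NEAT1 (log2 change −0.67, edgeR adjusted p = 0.00259), and lost that of KCNQ1OT1 after 1 h of feeding (edgeR adjusted p = 0.0791).

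Leaving out single libraries gave 0 to 1 calls after 1 h of feeding, 3 to 5 after 4 h, 0 to 1 between 4 h and 1 h under Torin1 and 2 to 5 in the interaction at 4 h. Isoform use was called in 1 to 2 genes with Torin1 in starved cells and 1 to 2 in 1 h fed cells. A minimum count of 50 gave 1 gene with changed isoform use after 4 h of feeding (NEAT1, edgeR adjusted p = 0.00220) and 1 with Torin1 in 1 h fed cells.

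The MALAT1 interaction at 4 h was lost with no filter, with only the groups compared and with limma-voom (adjusted p = 0.0573, 0.0679 and 0.0728).

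Changes near 0 turned sign. TUG1 after 4 h of feeding, 0.01 as reported, was −0.0369 with DESeq2 size factors, −0.0112 with total counts, −0.00785 with no filter, −0.0612 with a minimum count of 50, −0.00267 with only the groups compared and −0.0351 with DESeq2. Its interaction at 4 h, −0.02 as reported, was 0.0265, 0.000600 and 0.0477 with DESeq2 size factors, total counts and a minimum count of 50, and 0.0247 with DESeq2. NORAD with Torin1 in starved cells was 0.102 with total counts. Leaving out single libraries gave TUG1 −0.0965 to 0.207 after 1 h of feeding, −0.0472 to 0.0833 after 4 h, −0.203 to 0.0992 between 4 h and 1 h, −0.0926 to 0.0435 after 4 h under Torin1 and −0.101 to 0.0353 in the interaction at 4 h. NORAD gave −0.127 to 0.0499 after 1 h of feeding and −0.0733 to 0.000225 with Torin1 in starved cells. MALAT1 gave −0.0729 to 0.557 with Torin1 in 4 h fed cells and −0.610 to 0.0408 after 4 h of feeding under Torin1, and OIP5-AS1 gave −0.0832 to 0.0203 after 1 h under Torin1.

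With the replicate number as a block, NORAD passed between 4 h and 1 h of feeding (−0.21, edgeR adjusted p = 0.0438) and in the interaction at 4 h (0.31, edgeR adjusted p = 0.0440), and no other call of the 6 genes changed. NORAD passed in both also with DESeq2 size factors, no filter, a minimum count of 50, total counts, no mitochondrially encoded genes and DESeq2. KCNQ1OT1 had 23 to 146 counts a library, the fewest of the 6.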
